A study of Mus musculus with 11 samples.

Results

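Small nucleolar RNA (snoRNA) and small Cajal body RNA (scaRNA) genes were followed in spontaneous neuroblastomas of mice given CBL0137, panobinostat or both. Rows of the deposited gene table named Snora, Snord or Scarna with a number were taken, and 36 of 119 such rows reached 1 TPM (the deposited level, scaled to transcript length and to the library) in at least 2 of the 11 libraries. These 36 genes, of 24411 in the table and 15497 tested, are the members described here. They comprise 27 H/ACA genes (Snora), 4 C/D genes (Snord) and 5 scaRNA genes (Scarna). All 11 mice were homozygous for Th-MYCN, a MYCN transgene driven by the tyrosine hydroxylase promoter, which acts in the sympathetic lineage, and carried tumours of about 5 mm. Tumours were taken 16 h after 1 dose of vehicle given intraperitoneally (n = 3), of CBL0137 at 40 mg/kg intravenously (n = 3), of panobinostat at 5 mg/kg by the same route as vehicle (n = 2, numbered 1 and 3) or of the combination (n = 3). Doses of the combination were taken as those of the single drugs, since the labels do not restate them. Vehicle and CBL0137 differed in route, which cannot be told apart from the drug in their comparison. Panobinostat replicate 2 was not analysed here. CBL0137 is a curaxin, a DNA intercalator known to lock the histone chaperone FACT to chromatin, and panobinostat is an inhibitor of histone deacetylases.

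SnoRNAs are stable nucleolar RNAs that pair with ribosomal RNA. C/D RNAs assemble with the methyltransferase fibrillarin (Fbl), Nop56, Nop58 and Nhp2l1 and guide methylation of the ribose, whereas H/ACA RNAs assemble with the pseudouridine synthase dyskerin (Dkc1), Nhp2, Nop10 and Gar1 and guide conversion of uridine to pseudouridine. ScaRNAs carry the same box elements but modify spliceosomal RNAs in Cajal bodies. Most vertebrate members are cut out of introns of host genes, many of which encode ribosomal proteins or are non-coding transcripts of the Snhg group, so the host transcript and the small RNA are made in 1 transcription event but decay separately. MYC family proteins are known activators of ribosome production, the snoRNP protein genes included.

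The 4 C/D members are shown because they were the whole of their class above 0. The sequences come from GENCODE M21 transcripts on GRCm38 (mm10), 5′ to 3′ on the sense strand in DNA letters. Snord22 lies at chr19:8725866-8725991, plus strand, Snord17 at chr2:144265979-144266216, minus strand, Snord15a at chr7:99482785-99482932, minus strand and Snord15b at chr7:99479563-99479707, minus strand. Capitals mark a C box searched as TGATGA starting in the first 15 bases, and a D box searched as CTGA starting in the last 15 bases. Both motifs were searched on the sense strand, and they may overlap a second copy of themselves.
Snord22: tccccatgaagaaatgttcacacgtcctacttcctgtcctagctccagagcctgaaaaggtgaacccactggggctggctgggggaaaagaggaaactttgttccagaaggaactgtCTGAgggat
Snord17: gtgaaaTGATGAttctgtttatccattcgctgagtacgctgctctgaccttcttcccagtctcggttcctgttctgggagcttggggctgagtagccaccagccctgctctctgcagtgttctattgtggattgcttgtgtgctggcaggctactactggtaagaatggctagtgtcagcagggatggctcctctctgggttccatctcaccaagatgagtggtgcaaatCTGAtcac
Snord15a: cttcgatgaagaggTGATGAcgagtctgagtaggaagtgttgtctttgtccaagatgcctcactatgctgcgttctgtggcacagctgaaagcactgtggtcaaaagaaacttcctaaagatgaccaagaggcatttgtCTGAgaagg
Snord15b: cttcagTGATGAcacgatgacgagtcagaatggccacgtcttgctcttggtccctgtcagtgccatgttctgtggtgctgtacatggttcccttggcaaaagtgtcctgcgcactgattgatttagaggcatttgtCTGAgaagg
The D box was found in 4 of 4 C/D members and in 90.4% of the 73 C/D rows with a transcript sequence, and the C box in 3 of 4 and in 63.0%. Snord15a and Snord15b, copies within 1 gene, shared 98 aligned bases, 66.2% of the longer copy.

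The H/ACA members called against vehicle and above 0 in every library, except Snora62, and the scaRNA with the highest TPM are shown next. Snora43 lies at chr2:26637847-26637985, minus strand, Snora81 at chr16:23110756-23110933, plus strand, Snora78 at chr17:24719676-24719803, minus strand, Snora70 at chrX:74272484-74272620, plus strand and Scarna13 at chr12:105031075-105031349, minus strand. Capitals mark an ACA box starting in the last 8 bases.
Snora43: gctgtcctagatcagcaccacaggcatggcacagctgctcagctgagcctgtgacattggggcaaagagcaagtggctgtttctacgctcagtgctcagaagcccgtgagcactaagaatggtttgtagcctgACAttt
Snora81: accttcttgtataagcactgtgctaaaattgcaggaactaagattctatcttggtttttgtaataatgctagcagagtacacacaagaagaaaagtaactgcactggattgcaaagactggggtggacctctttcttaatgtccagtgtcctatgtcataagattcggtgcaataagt
Snora78: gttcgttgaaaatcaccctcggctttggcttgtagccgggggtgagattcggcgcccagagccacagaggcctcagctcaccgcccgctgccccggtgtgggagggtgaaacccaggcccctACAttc
Snora70: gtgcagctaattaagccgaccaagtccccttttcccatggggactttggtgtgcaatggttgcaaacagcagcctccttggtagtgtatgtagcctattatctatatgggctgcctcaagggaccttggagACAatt
Scarna13: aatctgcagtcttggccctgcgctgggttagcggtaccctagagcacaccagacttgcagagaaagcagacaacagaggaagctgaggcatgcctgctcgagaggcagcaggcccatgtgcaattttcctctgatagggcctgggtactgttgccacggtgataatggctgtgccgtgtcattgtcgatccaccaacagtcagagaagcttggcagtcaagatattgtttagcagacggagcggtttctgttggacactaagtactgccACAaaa
The ACA box was found in 25 of 27 H/ACA members and in 94.4% of the 36 H/ACA rows, against 8.2% of the 73 C/D rows. The loose H box pattern ANANNA occurred somewhere in 27 of 27 H/ACA members, but also in 84.9% of C/D rows, so it was left unmarked.

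TPM values are scaled to the library and keep no depth, so the read number behind a library is unknown. Each library summed to 1000000 TPM, and 12856 to 14747 genes reached 1 TPM. Several libraries carried markers of other tissues. Summed adrenal cortex markers reached 5242 TPM in combination replicate 2 and 3.40 to 28.1 TPM elsewhere, skeletal muscle markers reached 9342 TPM in panobinostat replicate 3, and kidney markers reached 416 TPM in vehicle replicate 2. Muscle markers also summed to 721 TPM in combination replicate 1 and 617 TPM in CBL0137 replicate 2, and B cell markers to 156 TPM in CBL0137 replicate 3. Macrophage markers summed to 722 to 902 TPM in vehicle, 1477 to 3006 TPM after CBL0137, 3596 and 4498 TPM after panobinostat and 5142 to 8483 TPM after the combination. Fibroblast markers spanned 177 to 303 TPM in vehicle, 383 to 1033 TPM after CBL0137, 2108 and 2321 TPM after panobinostat and 2552 to 4020 TPM after the combination. Endothelial markers spanned 22.8 to 42.8, 52.1 to 144, 150 and 173, and 282 to 525 TPM in the same groups. Sympathoadrenal markers (Th, Ddc, Dbh and 6 others) stayed between 584 and 1606 TPM in all libraries. The part of these markers in the results was not tested. In bulk tumours fewer cells of a type and less RNA per cell cannot be told apart. The mice were separate animals per the design text, and counts are also given without vehicle replicate 2, panobinostat replicate 3 and combination replicate 2 together, a choice made after seeing the data. These hold the highest kidney, muscle and adrenal sums, while the other libraries named here stayed in.

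Detection split the classes. Members made up 27 of 36 H/ACA rows (75%), 5 of 9 scaRNA rows (55.6%) and 4 of 74 C/D rows (5.4%), and the remaining 83 rows were listed at 0 in all 11 libraries. No row fell between, so no row lay just outside the 1 TPM rule. Just inside it were Snora65, above 0 in 4 libraries, and Snora2b and Snora75, each above 0 in 5.

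RefSeq length separated listed from unlisted rows with 3 exceptions. The shortest members, Snora2b and Snora31, measure 112 nt in RefSeq (GRCm38), and all 80 matching rows shorter than that were at 0 in every library. Of 39 rows of 112 nt or more, 36 were members. The exceptions at 0 were Snora36b (113 nt), Snora35 (119 nt, inside Htr2c, which was not tested) and Snord118 (137 nt), the U8 snoRNA needed for maturation of large-subunit ribosomal RNA. C/D rows at 0 had a median length of 68.0 nt, against 146.5 nt in C/D members, 126.0 nt in H/ACA members and 101.0 nt in H/ACA rows at 0. Outside these families, 1044 of 1047 rows with 1 transcript shorter than 112 nt were also at 0 everywhere, the exceptions being Mir686, Mir703 and Mir7b. GENCODE M21 gives other lengths for many of these rows, and there the split was not seen, since the H/ACA rows at 0 measure 128 to 136 nt. Which annotation the authors used is not given in the sources used here. On RefSeq lengths, the split between C/D and H/ACA rows cannot be told apart from one by length. Per the labels, RNA was purified on silica columns, which hold short RNA poorly, and the part of that step was not tested.

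**Figure D1:**
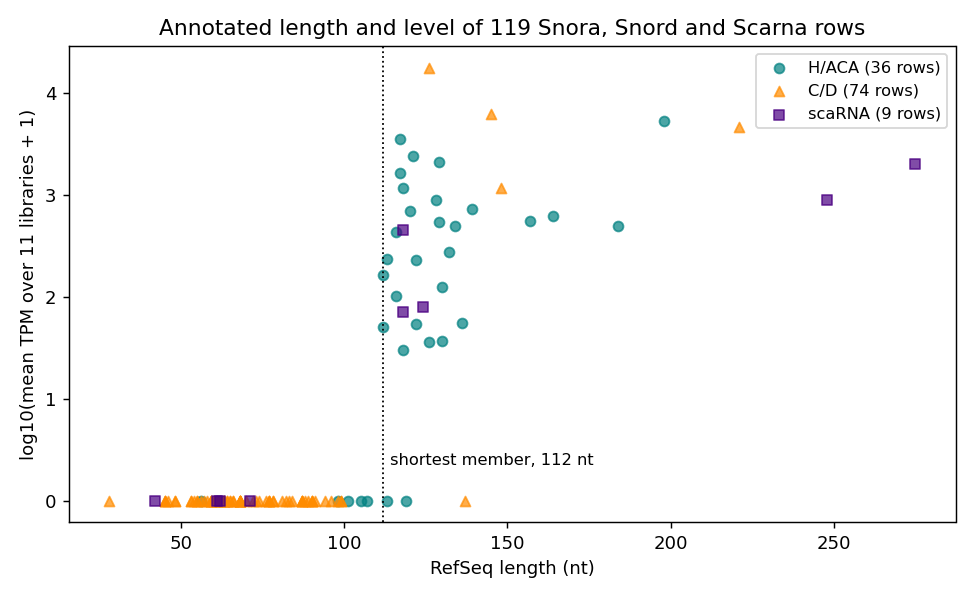
Mean TPM over the 11 libraries, as log10(mean + 1), against RefSeq length in nt for the 119 matching rows by class. All rows left of the dotted line at 112 nt lie at 0, and 36 of 39 rows at or right of it lie above 0.

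Well known C/D genes were among the rows at 0. Snord14a, Snord14c and Snord14d, copies of the U14 snoRNA that takes part in 18S ribosomal RNA processing, measure 87 nt and were listed at 0 although their hosts Rps13 and Hspa8 were tested. Snord116 and its copies Snord116l1 and Snord116l2, from the imprinted Snhg14 locus, measure 90 nt and were at 0. Among scaRNAs, Scarna2 (61 nt), Scarna17 (62 nt) and Scarna10 (71 nt) were at 0 in all libraries. A 0 in this table is not evidence that the RNA was absent from the tumours.

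The number of reads behind a member could be gauged from the steps between values. At several lengths, rows of equal length took whole multiples of 1 step within a library, to a tolerance of 0.012 TPM. The step is an upper bound on the worth of 1 read, so the multiples are the fewest reads that fit. At 118 nt, a length shared by Scarna3a, Scarna8, Snora34 and Snora65, a step was found in all 11 libraries. It was 55.2 to 90.8 TPM in vehicle, 47.7 to 51.5 TPM after CBL0137, 147 and 254 TPM after panobinostat and 80.5 to 103 TPM after the combination. In panobinostat replicate 1 the step was only 119 TPM at 112 nt, 85.9 TPM at 116 nt and 79.5 TPM at 117 nt. In panobinostat replicate 3 the step was 108 TPM at 120 nt. The 118 nt steps of both panobinostat libraries may therefore stand for more than 1 read. The bound is looser in some libraries than in others, so steps are not ranked between groups. Snora34 held 4 to 34 steps, Scarna3a 1 to 12, Scarna8 1 to 3 and Snora65 1 or 2 where above 0. Values of several members thus rested on very few steps.

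Steps also fell steeply with length. In CBL0137 replicate 1 a step was 77.4 TPM at 112 nt, 55.7 TPM at 116 nt, 41.2 TPM at 120 nt, 27.4 TPM at 126 nt and 22.7 TPM at 129 nt. From 112 to 129 nt the step fell 3.41 times while length rose 1.15 times. If each step was 1 read, a read on a shorter row was worth far more TPM. In the same library Snord22 corresponded to 655 steps, Snora7a to 95 and Snora70 to 20. TPM levels of different members are therefore given as deposited and are not ranked as molecule numbers.

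Zeros within members were spread unevenly over libraries. Of the 36 members, 3, 1 and 1 were at 0 in the vehicle libraries, 1, 1 and 2 after CBL0137, 2 and 8 after panobinostat and 8, 9 and 5 after the combination. Every combination library had more zeros than every vehicle library, whereas the panobinostat libraries differed from each other. All 4 C/D members, 18 of 27 H/ACA members and 3 of 5 scaRNA members were above 0 in every library, 25 in all. The other 11 had standard errors of their log2 change from CBL0137 of 1.49 to 2.78, against 0.131 to 0.797 in the 25.

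**Figure D2:**
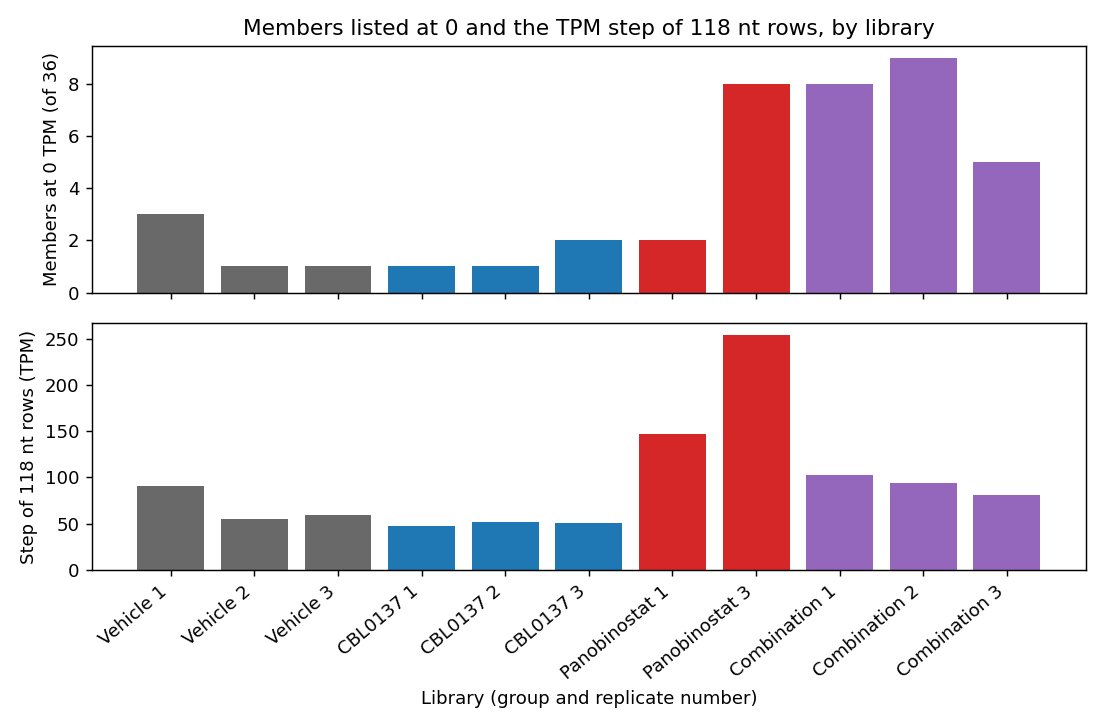
Members listed at 0 TPM of 36 (top) and the TPM step shared by rows of 118 nt (bottom) in each of the 11 libraries, coloured by group. Combination libraries hold 5 to 9 zeros against 1 to 3 in vehicle. The step is an upper bound on the worth of 1 read, looser in some libraries, so bar heights are not ranked between groups.

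Members together took 5.25, 4.83 and 4.72% of library TPM in vehicle, 5.37, 4.93 and 7.07% after CBL0137, 7.14 and 5.91% after panobinostat and 6.38, 4.77 and 6.31% after the combination. The group means were 4.93 ± 0.279% (SD, n = 3), 5.79 ± 1.13% (n = 3), 6.53 ± 0.869% (n = 2) and 5.82 ± 0.909% (n = 3). Both panobinostat libraries lay above all vehicle libraries, while the other treated groups overlapped vehicle. No test was made on these sums. By class, C/D members took 2.35 ± 0.357% in vehicle, 2.99 ± 0.734% after CBL0137, 3.66 ± 0.553% after panobinostat and 3.30 ± 0.570% after the combination. H/ACA members stayed between 1.79 and 2.85% and scaRNA members between 0.283 and 0.489% over all libraries. Snord22 alone made up 25.2 to 36.6% of the members' TPM. Without the 3 members of highest TPM the shares were 2.50, 2.83, 2.99 and 2.70% in the same order of groups.

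**Figure D3:**
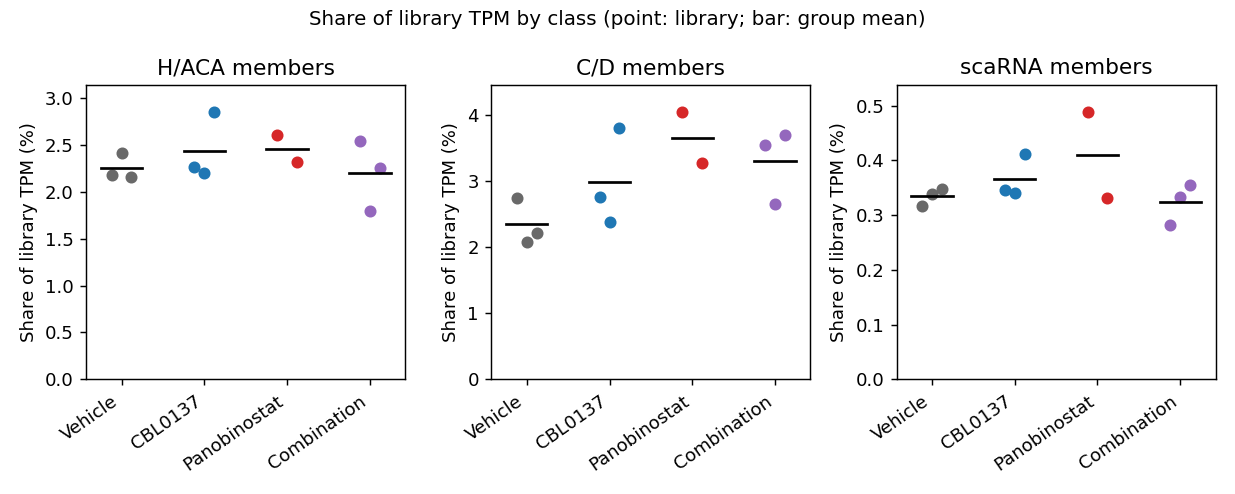
Share of library TPM (%) in H/ACA, C/D and scaRNA members, 1 point per library with the group mean as a bar. C/D shares of both panobinostat libraries lie above the 3 vehicle libraries, and H/ACA shares overlap between the groups.

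CBL0137 alone gave no called member. Changes were fitted with limma on log2(TPM + 1) over all tested genes, and a gene was called at a Benjamini-Hochberg adjusted p under 0.05. None of the 36 members was called, and 3 had an unadjusted p under 0.05, as had 3794 of the 15497 tested genes. Of all tested genes 6.12% were called, 4.99% as higher and 1.13% as lower. Members split into 25 with a higher and 11 with a lower mean. Leaving out vehicle replicate 2 or CBL0137 replicate 1 gave 1 call, array weights gave 6, and leaving out the 3 libraries together gave 0.

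The lowest p came from Snora7a, an H/ACA RNA within Rpl32. It measured 1930, 1567 and 1558 TPM in vehicle, against 2158, 2268 and 3093 TPM after CBL0137, with log2 change 0.56, SE 0.189 and adjusted p = 0.105. All CBL0137 libraries lay above all vehicle libraries, which held for 4 members in that direction and for 18.6% of tested genes. Snora3, within Rpl27a, measured 234, 808 and 507 TPM in vehicle, against 988, 888 and 923 TPM after CBL0137 (log2 change 1.02, SE 0.348, adjusted p = 0.108). Snora75, the U23 RNA of the nucleolin gene Ncl, stood at 530, 64.5 and 206 TPM in vehicle, against 223, 0 and 0 TPM after CBL0137 (adjusted p = 0.181). These Snora75 values rest on 1 to 5 steps where a step was found. Non-overlapping members on the lower side numbered 3, against 19.1% of tested genes.

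Panobinostat alone gave 3 called members of 36, all H/ACA, where 42.4% of all tested genes were called (25.5% higher, 16.9% lower). Snora78 and Snora81 were higher and Snora43 was lower. Unadjusted p was under 0.05 for 6 members and for 7937 of the 15497 tested genes. The count was 1 without vehicle replicate 1 or without vehicle replicate 3, 7 without panobinostat replicate 1, 0 without panobinostat replicate 3 and, with none of these 3 members called, 1 without the 3 libraries left out together. It was 6 with array weights and 6 when only these 2 groups were fitted. With 1 panobinostat library left out, the remaining one was taken to have the spread of the other groups. With TMM factors 1 member was called higher and 2 lower. With quantile normalization 2 were called higher and 0 lower, and the same counts came from rescaling to the TPM left after removal of histone genes and small structural RNAs.

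Snora81, within the translation factor gene Eif4a2, measured 388, 433 and 411 TPM in vehicle, against 944 and 710 TPM after panobinostat. Both treated libraries lay above all vehicle libraries, and the log2 change was 0.99 (SE 0.315, adjusted p = 0.0285). This call was lost without any 1 of the vehicle libraries or of the panobinostat libraries, with adjusted p between 0.0535 and 0.154. Snora78, in an intron of Snhg9, measured 328, 482 and 466 TPM in vehicle, against 598 and 810 TPM after panobinostat, again without overlap (log2 change 0.73, SE 0.223, adjusted p = 0.0246). It was not called without vehicle replicate 1 (adjusted p = 0.0736) or without panobinostat replicate 3 (adjusted p = 0.189). Snora43 went the other way, from 920, 1032 and 905 TPM in vehicle to 724 and 413 TPM (log2 change -0.80, SE 0.261, adjusted p = 0.0329). Its call was lost without panobinostat replicate 3, where the log2 change was -0.39 (adjusted p = 0.303), and without vehicle replicate 1, 2 or 3 (adjusted p 0.0634 to 0.0838).

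Members that missed the threshold included Snord17 and Snord22. Snord17, within the sorting nexin gene Snx5, measured 3644, 2767 and 3125 TPM in vehicle, against 6338 and 4676 TPM after panobinostat (log2 change 0.79, SE 0.315, adjusted p = 0.0686). Snord22, the U22 RNA known for its part in 18S ribosomal RNA processing, measured 15992, 12186 and 13626 TPM in vehicle, against 24422 and 21198 TPM after panobinostat (log2 change 0.72, SE 0.296, adjusted p = 0.0753). In neither did the panobinostat libraries overlap vehicle. Snora15, within the chaperonin gene Cct6a, stood at 1272, 193 and 619 TPM in vehicle, against 344 and 0 TPM after panobinostat (adjusted p = 0.0596). In all, 9 members were higher and 2 lower without overlap, where 37.1% and 27.8% of tested genes were.

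The combination gave 10 called members of 36, where 66% of all tested genes were called (35.9% higher, 30.1% lower). Snord17, Snora81, Snora70 and Snora78 were higher, and Snora43, Snora62, Snora41, Snora69, Snora75 and Scarna8 were lower. The 4 higher ones were above 0 in every library, whereas 4 of the 6 lower ones were at 0 in at least 1. The count fell to 6 without vehicle replicate 2, vehicle replicate 3 or combination replicate 1, and to 7 without the 3 libraries left out together, where Snord17, Snora81, Snora41 and Snora69 lost their calls. With no filter on low values 3 were called higher and 3 lower, with array weights 8 and 9. Scaling moved the split. TMM factors gave 1 higher and 6 lower, quantile normalization 3 and 7, and the rescaling described above 0 and 6. Those scalings moved the median log2 change of all genes from 0.08 to -0.05, -0.26 and -0.04.

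Snord17 measured 7042, 5236 and 5351 TPM after the combination, all above the vehicle range of 2767 to 3644 TPM (log2 change 0.88, SE 0.281, adjusted p = 0.0182). Without vehicle replicate 2 its adjusted p was 0.0641, without combination replicate 1 it was 0.0666, and after that rescaling it was 0.0504. Snora81 measured 517, 675 and 926 TPM, again above all vehicle libraries (log2 change 0.74, SE 0.282, adjusted p = 0.0392). Its call was lost without any 1 vehicle library or without combination replicate 2 or 3, with adjusted p of 0.0676 to 0.137. Snora78 measured 598, 611 and 686 TPM, with no overlap (log2 change 0.59, SE 0.199, adjusted p = 0.0243), but was not called without vehicle replicate 1 (adjusted p = 0.0988) or combination replicate 3 (adjusted p = 0.0685).

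Snora70, an H/ACA RNA within the ribosomal protein gene Rpl10, measured 343, 470 and 501 TPM in vehicle, against 751, 476 and 813 TPM after the combination (log2 change 0.61, SE 0.217, adjusted p = 0.0289). Combination replicate 2 lay inside the vehicle range. The call was lost without vehicle replicate 1 (adjusted p = 0.114), combination replicate 1 (0.0936) or combination replicate 3 (0.101). Each of the 4 higher calls was thus lost without 1 or more single libraries.

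Snora43 was lower in every combination library. It measured 553, 343 and 525 TPM after the combination, all below the vehicle range of 905 to 1032 TPM (log2 change -1.03, SE 0.234, adjusted p = 0.00288). The log2 change stayed between -1.16 and -0.82 with each of the 11 libraries left out, and all 11 fits and 12 other settings called it. Snora62, within the ribosomal protein gene Rpsa, measured 137, 222 and 148 TPM in vehicle, against 50.1, 138 and 82.2 TPM after the combination, which overlap (log2 change -0.98, SE 0.365, adjusted p = 0.0356). It was not called without vehicle replicate 2 or 3 or combination replicate 1 or 3 (adjusted p 0.0571 to 0.136).

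The other lower calls concerned members listed at 0. Snora75 was above 0 in all vehicle libraries, at 530, 64.5 and 206 TPM, and at 0 in all 3 combination libraries (adjusted p = 0.00897). Scarna8, the U92 RNA within Haus6, a gene of the augmin complex of the spindle, stood at 182, 110 and 177 TPM in vehicle, against 0 in all 3 combination libraries (adjusted p = 0.00607). No other member showed such a pattern in the combination's comparison with vehicle. Both calls held with each library left out. The vehicle levels of Scarna8 amounted to 2, 2 and 3 steps, and a step of the same length was 80.5 to 103 TPM after the combination, so no fold is given. Snora41, within Eef1b2, fell from 271, 495 and 440 TPM to 0, 0 and 239 TPM (adjusted p = 0.0485), and Snora69, within Rpl39, from 135, 82.4 and 87.8 TPM to 75.8, 0 and 0 TPM (adjusted p = 0.0379). Snora41 was not called without any 1 vehicle library, any 1 CBL0137 library or combination replicate 1 or 2 (adjusted p 0.0596 to 0.156), nor Snora69 without any 1 vehicle library or combination replicate 2 or 3 (adjusted p 0.0705 to 0.131). Without overlap, 3 members were higher and 5 lower than vehicle, where 38.4% and 32.4% of tested genes were.

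**Figure D4:**
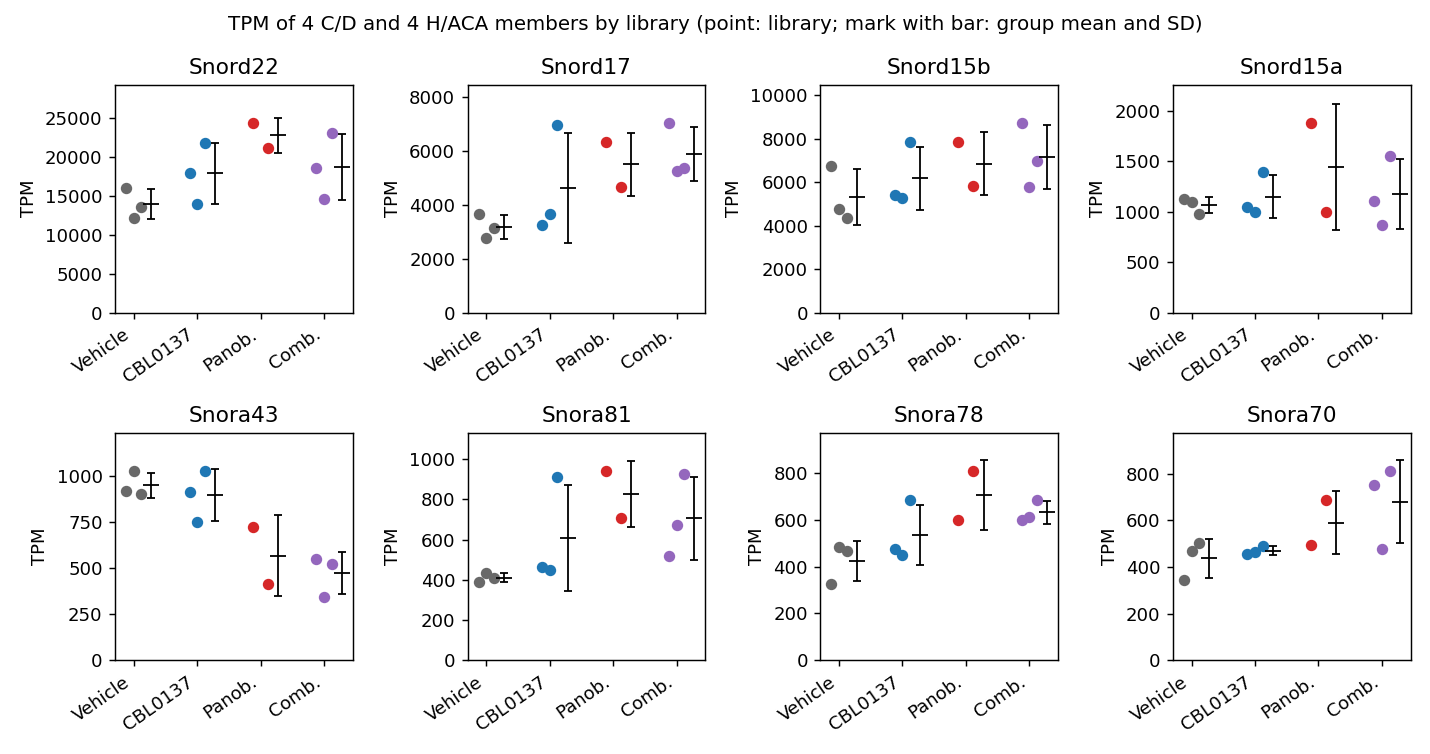
TPM of the 4 C/D members and of Snora43, Snora81, Snora78 and Snora70 in each library (points) with the group mean and SD (mark and bar). Snord17 lies above the vehicle range in all 3 combination libraries, and Snora43 lies below it in all panobinostat and combination libraries.

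Adding panobinostat to CBL0137 gave 3 called members of 36, all lower, where 56.9% of all tested genes were called (33.2% higher, 23.7% lower). Snora43 measured 915, 751 and 1030 TPM after CBL0137 against 553, 343 and 525 TPM after the combination (log2 change -0.94, SE 0.234, adjusted p = 0.00640), and the call held with each library left out. Scarna6, the U88 RNA within Atg16l1, measured 980, 931 and 1079 TPM against 902, 686 and 767 TPM, with log2 change -0.35, SE 0.131 and adjusted p = 0.0422. That call was lost with 7 of the 11 libraries left out, namely vehicle replicates 2 and 3, every CBL0137 replicate and combination replicates 2 and 3 (adjusted p 0.0507 to 0.119), and with a replicate block (0.0710). Snora2b, within Kansl2, stood at 77.4, 83.7 and 81.8 TPM after CBL0137, 1 step in each library, and at 0 in all combination libraries (adjusted p = 0.0224). It was not called without CBL0137 replicate 1 or 2 or combination replicate 1 or 2 (adjusted p 0.0520 to 0.0555). The count was 5 without vehicle replicate 1, CBL0137 replicate 3 or either panobinostat library, 7 without combination replicate 3, 1 without CBL0137 replicate 2, 11 with array weights and 4 without the 3 libraries left out together.

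No member reached the threshold as higher in that comparison. Of those not called, Snora70 had the lowest p on the higher side, with 454, 463 and 491 TPM after CBL0137 (log2 change 0.50, SE 0.217, adjusted p = 0.0746). Without overlap 0 members were higher and 4 lower, where 36.9% and 28.6% of tested genes were.

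Adding CBL0137 to panobinostat gave 0 called members of 36, where 10.5% of all tested genes were called (6.24% higher, 4.3% lower). An unadjusted p under 0.05 was seen for 3 members and for 5233 of the 15497 tested genes. Scarna13, the U93 RNA that modifies spliceosomal RNAs and lies in an intron of Snhg10, measured 2827 and 2085 TPM after panobinostat and 1719, 1392 and 2121 TPM after the combination (log2 change -0.50, SE 0.189, adjusted p = 0.101). Snora15 (adjusted p = 0.119) and Snora47 (adjusted p = 0.129) followed, both with zeros. Snora47, within Zbed3, stood at 84.8 and 70.0 TPM after panobinostat and at 0, 0 and 46.5 TPM after the combination. Without panobinostat replicate 1 there was 1 call, and without combination replicate 3 there were 2. Without overlap 0 members were higher and 2 lower, where 25.1% and 21.5% of tested genes were.

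The interaction, the difference between the combination and the sum of the separate changes, was called by limma for 0 members and for 0% of all tested genes, of which 1631 had an unadjusted p under 0.05. Such a p was seen for 4 members, namely Scarna13, Snora2b, Snora3 and Snora47. Scarna13 had the lowest (log2 difference -0.73, SE 0.254, adjusted p = 0.379), with 1820, 1927 and 1891 TPM in vehicle, against 2139, 2102 and 2387 TPM after CBL0137. Without panobinostat replicate 1 there was 1 call.

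The C/D and H/ACA classes were described side by side, with no test between them. All 4 C/D members had higher means than vehicle in each of the 3 comparisons with vehicle, which share the vehicle libraries. Their median log2 change was 0.29 after CBL0137, 0.55 after panobinostat and 0.43 after the combination. H/ACA medians were 0.12, 0.13 and -0.11, and those of all genes -0.01, 0.10 and 0.08. The H/ACA medians include 9 members at 0 in at least 1 library, with large standard errors, whereas no C/D member was at 0 in any. The part of those 9 members in the class medians was not tested. The SD of a library's median level, as log2(TPM + 1), around its group was 0.333 for C/D and 0.279 for H/ACA members. It describes single libraries and is not the error of a median change between groups. With single libraries left out the C/D median change ranged from 0.08 to 0.43 after CBL0137. It ranged from 0.36 to 0.82 after panobinostat and from 0.35 to 0.59 after the combination. Of the H/ACA members 18, 15 and 12 of 27 had higher means. With quantile normalization 3 of 4 C/D members were higher after CBL0137 and after panobinostat, and Snord22 was held at no change, as the method does for a gene of constant rank. With TMM factors or rescaling 3 of 4 were higher after the combination. The H/ACA median after CBL0137 was -0.05 without vehicle replicate 1 and 0.25 without vehicle replicate 2. After panobinostat it was 0.40 without panobinostat replicate 3 and 0.09 without panobinostat replicate 1. The H/ACA median after the combination was -0.43 without combination replicate 3, 0.13 without combination replicate 2 and 0.29 without the 3 libraries left out together, so the sign rested on single libraries after CBL0137 and after the combination.

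The Snord15 pair lies in the ribosomal protein gene Rps3, and both copies are guides of large-subunit ribosomal RNA methylation. Snord15b measured 6771, 4764 and 4371 TPM in vehicle, 5424, 5271 and 7866 TPM after CBL0137, 7878 and 5824 TPM after panobinostat and 8738, 5799 and 6994 TPM after the combination. Snord15a measured 1126, 1095 and 981 TPM, then 1049, 1002 and 1394 TPM, then 1883 and 1001 TPM, then 1108, 864 and 1558 TPM. All treated groups overlapped vehicle in Snord15a, and none was called in either copy (adjusted p = 0.145 for Snord15b and 0.754 for Snord15a after the combination).

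After the combination Snord22 measured 18654, 14579 and 23090 TPM, overlapping vehicle in 1 library (log2 change 0.41, SE 0.264, adjusted p = 0.192), and after CBL0137 17915, 13970 and 21849 TPM (log2 change 0.35, adjusted p = 0.451). Other abundant H/ACA members were not called against vehicle. Snora74a, the U19 RNA, averaged 5025 ± 207 TPM in vehicle, 5533 ± 1002 TPM after CBL0137, 5749 ± 194 TPM after panobinostat and 5274 ± 1069 TPM after the combination. Snora44 averaged 3268 ± 526 and 3636 ± 617 TPM, and Snora26 2444 ± 443 and 2049 ± 559 TPM, in vehicle and combination (SD, n = 3). Snora64, within Rps2, ranged from 408 TPM in combination replicate 2 to 2619 TPM in panobinostat replicate 3. Scarna3a and Scarna3b, whose transcripts share 85.7% of the longer one, ranged from 206 to 1130 TPM and from 0 to 161 TPM, and reads could be split between them.

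Most host genes had lower log2 changes than their members. All 36 members lie within a tested host, 32 hosts in all. In GENCODE 16 members lie in an intron and 17 overlap an exon of some host transcript, so reads of such transcripts and of the member may be shared. The other 3 members, Snora17, Snora43 and Snora74a, were placed by RefSeq spans (Snhg7, Snhg7 and Snhg4) that give no strand. Hosts called lower numbered 1 after CBL0137, 14 after panobinostat and 22 after the combination, of 32, beside 1.13%, 16.9% and 30.1% of all tested genes. Hosts called higher numbered 1, 1 and 2, beside 4.99%, 25.5% and 35.9%. After the combination 26 members had a host called lower, and 6 of them were called lower themselves. Over all 36 members, the member's log2 change exceeded its host's in 28 after CBL0137, 27 after panobinostat and 24 after the combination. Median host changes were -0.12, -0.34 and -0.60, and median member changes 0.12, 0.24 and -0.06. Pearson's r between the 2 changes over the 36 members was 0.27, 0.19 and 0.07, a description only, since both come from the same libraries and some hosts hold 2 members. In the 25 members above 0 in every library the counts were 24, 24 and 22, the member medians 0.13, 0.37 and 0.15 and r 0.08, 0.02 and 0.28. That subset leaves out members that went to 0 under treatment, so its counts lend no support. The difference between a member and its host was not tested.

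Snord22 and its host Snhg1, a non-coding RNA whose introns carry C/D genes, are an example. In GENCODE Snord22 overlaps an exon of a Snhg1 transcript, so reads may be shared. The same holds for Snord15b in Rps3, Snora26 in Dancr, and Snora44 and Snora16a in Snhg12. Snord15a and Snord17 lie in introns. Snhg1 averaged 182 ± 19.3 TPM in vehicle, 175 ± 25.2 TPM after CBL0137, 119 ± 2.87 TPM after panobinostat and 82.9 ± 11.3 TPM after the combination. It fell by 1.13 on the log2 scale after the combination (SE 0.136, adjusted p = 5.96e-05), while Snord22 was 0.41 higher and not called. Rps3 fell by 0.61 (SE 0.0964, adjusted p = 0.000305), beside 0.10 for Snord15a and 0.44 for Snord15b. Snhg4 fell by 1.62 (adjusted p = 0.000107) beside 0.05 for Snora74a, and Dancr fell by 1.38 (adjusted p = 6.65e-05) beside -0.28 for Snora26. Snx5, by contrast, rose by 0.42 (SE 0.0816, adjusted p = 0.00107), as did its member Snord17.

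Snora43 and its host both fell. Snhg7 fell by 1.22 after the combination (SE 0.155, adjusted p = 8.38e-05) and Snora43 by 1.03. Snora17, placed in the same host span, averaged 270 ± 170 TPM in vehicle, against 242 ± 130 TPM after the combination (log2 change -0.02, SE 0.633). Of the members at 0 after the combination, Ncl, host of Snora75, fell by 1.29 (adjusted p = 0.000364) and Haus6, host of Scarna8, by 1.40 (adjusted p = 0.000262). Snhg12 fell by 1.04 (adjusted p = 0.000415) beside 0.15 for Snora44 and 0.10 for Snora16a. Snhg10 fell by 0.78 (adjusted p = 0.0139) beside -0.13 for Scarna13. Tpt1 rose by 0.79 (adjusted p = 0.000453). Its member Snora31 went from 442, 269 and 0 TPM in vehicle to 0, 0 and 130 TPM. Snora31 was not called (log2 change -3.28, SE 2.78, adjusted p = 0.321).

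**Figure D5:**
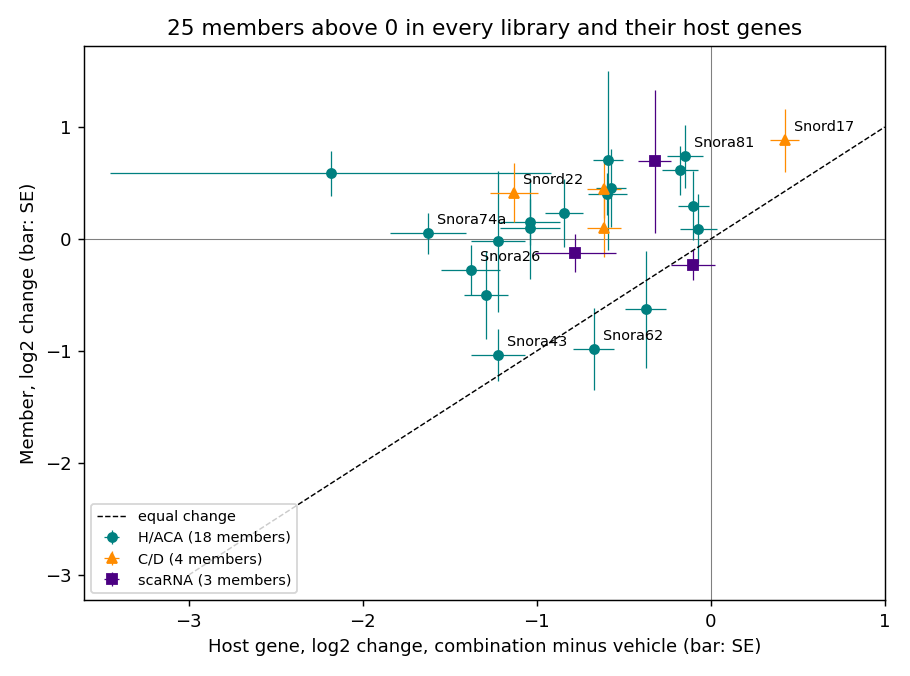
Log2 change (combination minus vehicle) of the host gene (x axis) and of the member (y axis) for the 25 members above 0 in every library, with standard errors as bars and equal change as a dashed line. The 11 members at 0 in any library, 4 of them called lower, are not drawn. Points for 22 of 25 members lie above the dashed line.

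Genes for the proteins that bind these RNAs fell. After the combination 4 of 4 C/D core genes were called lower (median log2 change -1.54) and 4 of 4 H/ACA core genes (median -1.52), beside a median of 0.08 over all genes, 30.1% of which were called lower. Fbl measured 199 ± 1.94 TPM in vehicle, against 77.0 ± 15.7 TPM after the combination, and fell by 1.38 (SE 0.139, adjusted p = 2.31e-05). Dkc1 went from 79.2 ± 5.17 to 23.6 ± 5.14 TPM and fell by 1.73 (SE 0.160, adjusted p = 1.59e-05). After panobinostat alone the counts were also 4 of 4 in each core list (medians -0.84 and -0.95), with Nop58 at -1.14 and Nhp2 at -1.17. After CBL0137 0 of 4 C/D and 1 of 4 H/ACA core genes were called lower, the 1 being Nhp2 (log2 change -0.60, adjusted p = 0.0461). Summed macrophage, fibroblast and endothelial markers were higher in every treated library than in any vehicle library, by most after the combination, and their part in these results was not tested.

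Other lists of the pathway are read beside the 1.13%, 16.9% and 30.1% of all tested genes called lower after CBL0137, panobinostat and the combination. Of 10 tested assembly factors 0, 6 and 8 were called lower in these comparisons, and none higher. Of 13 Cajal body genes 1, 9 and 11 were called lower, among them Coil, the coilin scaffold, at -0.88 after the combination (adjusted p = 0.000412). Of 15 genes for processing and decay of snoRNA 0, 12 and 12 were called lower, and 1 was called higher after the combination. Of 17 non-coding host genes 0, 9 and 12 were called lower and 0, 3 and 2 higher. Gas5, the host of Snord47, which was at 0 here, fell by 1.21 after the combination (adjusted p = 0.000234), whereas Snhg18 rose by 2.53 (adjusted p = 1.36e-05). Of 9 imprinted neighbours of snoRNA clusters 0, 4 and 7 were called lower, Snhg14 by 1.89 after the combination (adjusted p = 2.86e-05), and 1 was called higher.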

How the data were processed

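One RNA library per tumour was made with a stranded, ribosomal RNA-depleted total RNA kit, per the labels. The authors deposited TPM values for 24411 genes, made with STAR, SAMtools and RSEM on mm10, per the submitters' processing notes. Versions and settings are not given in the sources used here. RSEM is known to divide counts by an effective length, which raises TPM of short rows. The members and gene lists were chosen with earlier results of these data known. The tests covered 15497 genes that reached 1 TPM in 2 or more libraries (8914 did not), as log2(TPM + 1). Differences are on that scale, which shrinks changes of genes near or under 1 TPM. Members resting on few steps differ, since a fall from 1 step to 0 gives a large log2 change. Snora2b is an example (-6.36, combination minus CBL0137). One limma 3.58.1 model (R 4.3.3) held the 4 group means of 11 libraries, with trended eBayes and 7 residual df, and gave 2-sided tests, Benjamini-Hochberg adjusted over all tested genes, threshold 0.05. It was tried on simulated data with normal noise. Those data lack the zeros and whole steps of several members, so the trial does not vouch for calls on such members. No count test was possible without counts. Lengths come from RefSeq, places, hosts and sequences from GENCODE M21, both GRCm38.

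Named members were chosen by rule. They are the 5 of highest mean TPM per class, up to 8 called per comparison and direction (or, with fewer than 3, those of lowest p as not called), those nearest the 1 TPM rule, those at 0 throughout 1 group only, and a panel of well known genes with their hosts. Snora35, Snora36b, Snora31, Snora16a, Snora17 and Snord47 were named after their values were seen. Scaling was varied by TMM factors, by quantile normalization and by rescaling to the TPM left after removal of histone genes and small structural RNAs. The pseudocount was varied to 0.1 and 5 TPM and the filter to none or 5 TPM. Fits were also made with a replicate block, with array weights, with an untrended prior, on the compared groups alone, and with 1 library at a time left out.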

Additional observations from a re-analysis of the deposited data

How the results depend on the processing

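Members called ranged with each library left out from 0 to 1 for CBL0137 minus vehicle, 0 to 7 for panobinostat, 6 to 10 for the combination, 1 to 7 for the combination minus CBL0137, 0 to 2 for the combination minus panobinostat and 0 to 1 for the interaction. The H/ACA median after the combination ranged from -0.43 to 0.13. Array weights gave 6, 6, 17 and 11 calls in the first 4 of these comparisons, fitting only the groups compared gave 6 for panobinostat, and no filter, or rescaling to the TPM without histone genes and small structural RNAs, gave 6 each for the combination. Without vehicle replicate 2, panobinostat replicate 3 and combination replicate 2 together, panobinostat gave 1 call, and H/ACA medians were 0.41 after panobinostat and 0.29 after the combination. Shares of TPM without the 3 highest members were 2.50, 2.83, 2.99 and 2.70% in vehicle, CBL0137, panobinostat and combination. The cause was not tested, apart from the share, which is smaller by construction. Of 368 alternative fits of called members, 87 lost the call and 281 kept it, and none turned direction. With a replicate block the counts were 0, 3, 10, 3, 0 and 0. Calls behind equal counts differed, since Snora41 after the combination (adjusted p = 0.0796) and Scarna6 between the combination and CBL0137 (0.0710) lost theirs and other members gained one. Over 15 pairs of libraries with the same number, deviations from group means correlated between -0.26 and 0.19, and 2 exceeded 0.1, so the numbers were not taken to pair the tumours. Depth is unknown, and members resting on single steps cannot show changes smaller than their step.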

Other observations

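Other short structural RNAs were listed at high TPM. Rmrp, the RNA of RNase MRP that cleaves precursor ribosomal RNA, took 8.37 to 13.8% of TPM over the 11 libraries and was not called in any comparison with vehicle. Vaultrc5, a vault RNA, measured 61.4, 62.4 and 74.3 TPM in vehicle, against 274 and 218 TPM after panobinostat, a log2 change of 1.88 (SE 0.343, adjusted p = 0.00236), and 105, 113 and 263 TPM after the combination (log2 change 1.14, SE 0.307, adjusted p = 0.00772). Terc, the telomerase RNA, which carries an H/ACA domain and binds dyskerin, measured 104, 107 and 111 TPM in vehicle, against 44.6, 21.5 and 85.2 TPM after the combination (log2 change -1.28, SE 0.364, adjusted p = 0.0104). After CBL0137 Vaultrc5 stood at 99.3, 88.9 and 134 TPM (adjusted p = 0.209).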
